A study of Mus musculus with 4 samples.

Results

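The genes described here are the 3 DNA methyltransferases Dnmt1, Dnmt3a and Dnmt3b, the 3 TET enzymes Tet1, Tet2 and Tet3, and the pair Uhrf1 and Uhrf2, which carry or read DNA methylation in the mouse. They were taken by symbol, and all probe sets that the platform annotation assigns to 1 of these genes alone were kept. This gave 8 genes of 18193 measured and 21 probe sets of 34945. Expression was measured on 4 Affymetrix arrays, 2 of CLP_RAGhigh and 2 of CLP_RAGlow cells. Both populations are subsets of the common lymphoid progenitor (CLP), a bone marrow progenitor of B, T and natural killer cells, and both came from C57Bl6 mice aged 8 to 12 weeks, with RNA from 2000 sorted cells per array. The sample descriptions give the sort as a high or a low level of GFP, and they do not describe the reporter allele that makes it. The replicates are labelled biological, with nothing on separate animals or sorts, so a p-value here reflects only the spread between these arrays, and their number limits the precision of every value.

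DNA methylation marks cytosines, mostly in CpG pairs, and is passed on at each cell division. Dnmt3a and Dnmt3b set new marks, Dnmt1 copies existing marks to the newly made strand behind the replication fork, and Uhrf1 brings Dnmt1 there by binding DNA that is methylated on only the old strand. TET enzymes oxidise methylated cytosine and so start its removal. In blood formation, loss of Dnmt3a or Tet2 in mice lets stem cells expand, both genes are often mutated in human blood cancers, and loss of Dnmt1 impairs stem cells and their lymphoid progeny.

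Of the 8 genes, Uhrf1 had the largest difference relative to its error, 1.46-fold higher in CLP_RAGhigh. Dnmt1 had a lower mean in CLP_RAGhigh on each of its 3 probe sets, and each of these differences rested on 1 array. Tet1 and Tet2 differed most in size, and those differences rested on the low values of CLP_RAGhigh replicate 2. Dnmt3a, Tet3 and Uhrf2 had differences of at most 0.13 in size on the log2 scale on the brightest probe set. None of the 8 passed the limma test over all genes.

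Each gene was represented by the probe set with the highest mean over the 4 arrays, and values are log2 of the deposited RMA intensity. In the limma fit across 18193 genes, 0 genes were higher and 0 were lower at an adjusted p under 0.05 (0% each way), while 428 (2.35%) were higher and 535 (2.94%) lower at an unadjusted limma p under 0.05. None of the 8 genes was among these. The arrays did not overlap for 2 of the 8 genes, both higher in CLP_RAGhigh, against a background of 15.4% of all genes above and 15.8% below. The median difference of the 8 genes was 0.03, and that of all genes was 0.0028. With 2 arrays against 2, an exact two-sided permutation test of a single gene cannot give a p below 0.333, so limma's fit, which shares the spread across genes, was used throughout.

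**Figure D1:**
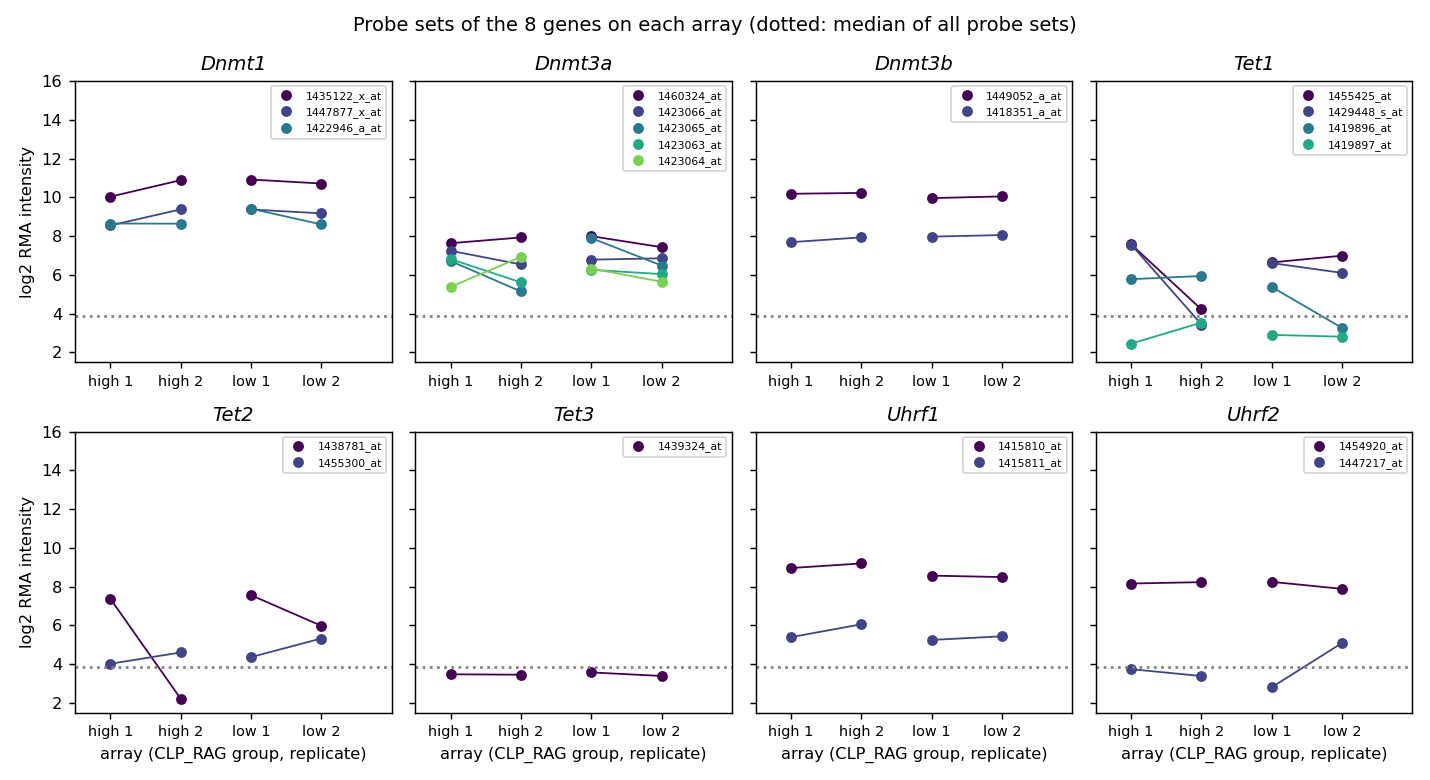
The plot shows log2 RMA intensity (y axis) of the 21 probe sets on each of the 4 arrays (x axis, CLP_RAGhigh replicates 1 and 2, then CLP_RAGlow replicates 1 and 2). There is 1 panel per gene, lines join the arrays of 1 group, and the dotted line is the median of all probe sets, 3.88. The brightest probe sets of Tet1 and Tet2 drop on CLP_RAGhigh replicate 2, to 4.21 and 2.23, while those of Dnmt3b, Uhrf1 and Uhrf2 range by at most 0.70 over the 4 arrays.

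The sorted cells were checked against markers. Of 5 CLP markers, 4 were measured (Il7r, Flt3, Kit and Cd27), and none was below the median of all probe sets on every array. The summed level of these 4, as log2, was 12.66 and 11.84 on the CLP_RAGhigh arrays and 11.81 and 11.97 on the CLP_RAGlow arrays. In this and all other pairs of array values, replicate 1 comes first. Both CLP_RAGhigh arrays were above both CLP_RAGlow arrays for Il7r (difference 0.81) and below them for Cd27 (-0.43). The arrays overlapped for Flt3 (0.14) and Kit (-0.28). Of the markers of other cells, 1 of 4 measured for B cells (Ms4a1), 1 of 5 for T cells (Cd3g), 1 of 4 for natural killer cells (Ncr1), 1 of 5 for granulocytes and monocytes (Itgam) and 2 of 4 for erythroid cells (Gata1 and the globin Hba-a1) lay below that median on all 4 arrays. The granule enzyme Mpo averaged 10.90 on the CLP_RAGhigh arrays against 10.86 on the CLP_RAGlow arrays, and the summed granulocyte and monocyte level was 11.53 and 11.45 in CLP_RAGhigh and 11.61 and 11.16 in CLP_RAGlow. Other genes of that list varied more, with S100a8 at 9.63 and 9.60 against 10.15 and 3.81 (difference 2.63), Lyz2 differing by -0.51 and Elane by 0.41, separated above (both CLP_RAGhigh arrays over both CLP_RAGlow arrays). B-cell markers (4 of 5 measured) had summed levels of 8.66 and 8.21 in CLP_RAGhigh and 7.29 and 7.54 in CLP_RAGlow. Cd79a, Cd79b and Cd22 were separated above, with differences of 2.05, 0.93 and 0.68, and Ms4a1 was separated below, with -0.39. Erythroid markers (4 of 5 measured) summed to 7.38 and 6.81 against 6.40 and 5.76. Klf1 differed by 2.02, but Gata1, Hba-a1 and Epor by 0.20, 0.07 and -0.004. Of the T-cell markers, Cd5 and Cd8a were separated above (1.01 and 0.26) and the others overlapped. Of the dendritic markers, Bst2 was separated below (-0.90), Siglech above (0.31), and Itgax overlapped (-0.33). Of the megakaryocyte markers, only Pf4 was separated, above (0.48), and it lay below the median of all probe sets on all 4 arrays. Over all genes, 15.4% were separated above and 15.8% below. The RNA was amplified from few cells, and the ratio of the 3' to the 5' control probe set of Actb ranged from 9.62 to 24.5, lowest on CLP_RAGhigh replicate 2 and highest on CLP_RAGlow replicate 2. The part of these measures in the values below was not tested. In sorted populations measured in bulk, fewer cells that express a gene and less of its RNA per cell cannot be told apart.

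Uhrf1, the reader that guides maintenance methylation, had log2 intensities of 8.96 and 9.20 on the CLP_RAGhigh arrays and 8.57 and 8.50 on the CLP_RAGlow arrays (probe set 1415810_at). The 2 groups did not overlap, and the difference between them exceeded the gap between the arrays within either group. The means were 9.08 ± 0.17 and 8.53 ± 0.05 (SD, n = 2 each), a difference of 0.55 ± 0.27 (SE), with a 95% interval from -0.13 to 1.23. Adjusted over all genes, the limma p was 0.979, so the difference did not pass. The dimmer probe set of Uhrf1, 1415811_at, had 5.40 and 6.06 in CLP_RAGhigh and 5.26 and 5.44 in CLP_RAGlow. Its groups overlapped, as CLP_RAGhigh replicate 1 lay below CLP_RAGlow replicate 2, and the difference was 0.38 ± 0.39. It was 0.049 without CLP_RAGhigh replicate 2 and 0.71 without CLP_RAGhigh replicate 1. Without any single array the difference of the brighter probe set ran from 0.43 to 0.66, and Uhrf1 was higher in CLP_RAGhigh under all 12 alternatives tried. Most of these could not change its sign. For groups that do not overlap, leaving out 1 array or adding an offset keeps the sign. Alternatives that change only the error or the genes kept gave the same 0.55.

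Dnmt1, the maintenance methyltransferase, had log2 intensities of 10.03 and 10.88 on the CLP_RAGhigh arrays and 10.92 and 10.71 on the CLP_RAGlow arrays (1435122_x_at). CLP_RAGhigh replicate 1 was the low array, and replicate 2 lay between the CLP_RAGlow arrays. The difference was -0.36 ± 0.30 (SE, n = 2 per group, limma adjusted p = 1), with a 95% interval from -1.11 to 0.39. It turned to 0.069 without CLP_RAGhigh replicate 1. The second probe set, 1447877_x_at, repeated this order of the low array, with 8.55 and 9.38 against 9.37 and 9.17, and differed by -0.31 ± 0.35. The third, 1422946_a_at, had another pattern, with CLP_RAGlow replicate 1 at 9.41 and the other arrays between 8.60 and 8.65. Its difference of -0.36 ± 0.35 therefore rested on 1 CLP_RAGlow array, and was 0.040 without it. The 3 probe sets share the gene's RNA and are not replicates. Their suffixes also mark probes that can bind several transcripts (a) or other sequences (x).

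Uhrf2, a relative of Uhrf1 with the same kinds of domains, had 8.16 and 8.24 in CLP_RAGhigh and 8.25 and 7.89 in CLP_RAGlow (1454920_at). CLP_RAGlow replicate 1 was the highest and replicate 2 the lowest of the 4 arrays, so the groups overlapped. The difference was 0.13 ± 0.32 (SE, n = 2 per group, limma adjusted p = 1), with a 95% interval from -0.66 to 0.92. It was -0.050 without CLP_RAGlow replicate 2. The second probe set, 1447217_at, was below the median of all probe sets on 3 arrays and had 5.10 on CLP_RAGlow replicate 2. It went the other way, with a difference of -0.39 ± 0.77.

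Dnmt1 and Uhrf1 are both known as genes whose expression follows the cell cycle through E2F factors, and the promoter windows of RefSeq (assembly GRCm38.p6) were searched for the 8-base E2F-type words TTTCCCGC, TTTCGCGC, TTTGCCGC and TTTGGCGC on both strands. The windows run from 250 bases before to 50 bases after each annotated start. All 8 genes had a window, 13 in all, and matches were found in 2 windows, 1 of Dnmt1 and 1 of Uhrf1. Of all 32851 windows, 2.27% held a match, as did 2.6% of all genes with a window. On a list of S phase genes 8 of 20 with a window did, and on a list of G2 and M phase genes 1 of 18. The 3 matches are shown because Dnmt1 and Uhrf1 were the members with a match, while their mean differences had opposite signs here. Each is read 5′ to 3′ on the strand of its gene, with the match in capitals.
Dnmt1, chr9:20952825-20952852, minus strand, 219 bases before the start: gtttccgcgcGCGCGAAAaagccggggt
Dnmt1, chr9:20952574-20952600, minus strand, base 34 after the start: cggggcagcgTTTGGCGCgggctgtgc
Uhrf1, chr17:56304118-56304145, plus strand, 185 bases before the start: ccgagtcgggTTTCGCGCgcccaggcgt
The Dnmt1 match at 219 bases is the reverse complement of TTTCGCGC, the word found in Uhrf1. These windows belong to 1 of 3 annotated Dnmt1 starts and 1 of 2 Uhrf1 starts, and the array does not tell the starts apart. A match describes the letters in the window and was not tested for binding. CpG pairs, the sites these enzymes act on, numbered from 2 to 57 per window (median 28), against a median of 7 over all windows. The count was not particular to these genes, as the windows of the S phase genes had a median of 21.5. Those of a list of G2 and M phase genes had 24.

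The cell cycle lists were compared with both genes array by array, as deviations from each gene's mean over the 4 arrays. S phase genes (22 of 24 measured) had mean deviations of -0.50 and 0.08 on the CLP_RAGhigh arrays and 0.21 and 0.21 on the CLP_RAGlow arrays. Dnmt1 had -0.60 and 0.25, then 0.28 and 0.08, on its brightest probe set, 1435122_x_at. The low array of that probe set was also the lowest array of the S phase list. The Dnmt1 probe set 1422946_a_at did not have this low array, with 8.65 and 8.64 in CLP_RAGhigh and 9.41 and 8.60 in CLP_RAGlow. Whether Dnmt1 followed the S phase list was not tested. Uhrf1 had 0.16 and 0.39, then -0.24 and -0.31, with its lowest value on CLP_RAGlow replicate 2. The G2 and M phase genes (20 of 21 measured) had -0.96 and -0.02, then 0.10 and 0.88, highest on CLP_RAGlow replicate 2. Uhrf1 was lowest on that array by a gap of only 0.075 to CLP_RAGlow replicate 1. The dimmer Uhrf1 probe set, 1415811_at, was instead lowest on CLP_RAGlow replicate 1, at 5.26 against 5.44 on replicate 2. By mean, 19 of the 22 S phase genes were lower and 3 higher in CLP_RAGhigh, with 11 separated below and 0 above (15.8% and 15.4% of all genes), and the median difference was -0.44. It was -0.11 without CLP_RAGhigh replicate 1. Rrm2, Pcna and Mcm5 were the 3 whose unadjusted limma p was under 0.05 (2.94% of all genes were lower and 2.35% higher by this rule), each with the lower mean in CLP_RAGhigh, and none passed over all genes. Pcna, the sliding clamp to which Dnmt1 and its partners bind at the fork, had 9.70 and 10.06 against 10.54 and 10.47, a difference of -0.62 ± 0.21 (SE, n = 2 per group, limma adjusted p = 0.886). By mean, 17 of the 20 G2 and M phase genes were lower and 3 higher, 8 were separated below and 0 above (15.8% and 15.4% of all genes), and the median was -1.15 (-0.34 without CLP_RAGhigh replicate 1 and -0.67 without CLP_RAGlow replicate 2). The 5 with an unadjusted limma p under 0.05 (2.94% of all genes lower, 2.35% higher) were all lower, Cdc20, Ccnb2, Aurkb, Tpx2 and Birc5, of which Birc5, an inhibitor of apoptosis that acts in mitosis, differed by -1.58 ± 0.50 (-2.20 to -0.95 with 1 array left out).

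**Figure D2:**
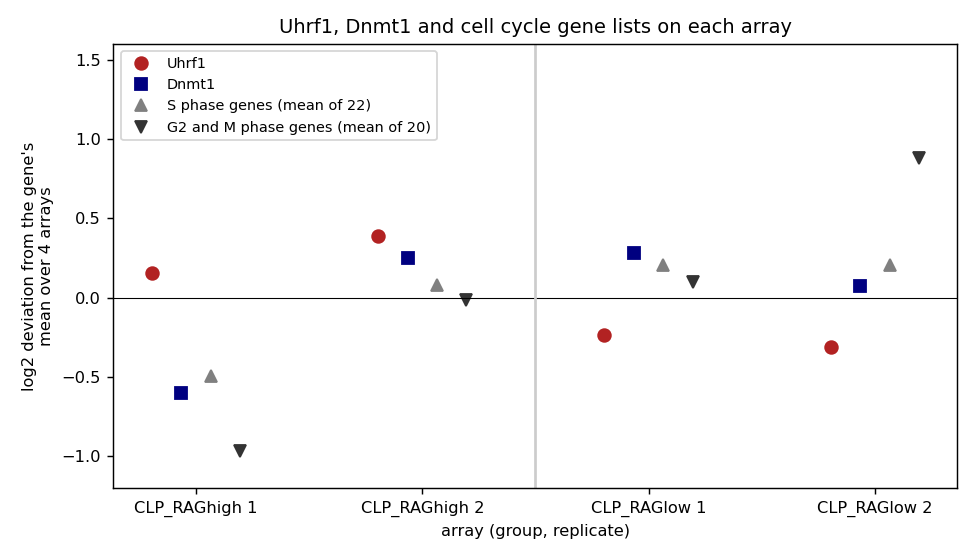
The plot shows the log2 deviation from the mean over the 4 arrays (y axis) of Uhrf1, Dnmt1, and the mean deviations of 22 S phase and 20 G2 and M phase genes on each array (x axis). Each gene is shown by its brightest probe set. Dnmt1 and both lists are lowest on CLP_RAGhigh replicate 1, at -0.60, -0.50 and -0.96. The Dnmt1 probe set 1422946_a_at, not shown, is lowest on CLP_RAGlow replicate 2. Uhrf1 is above 0 on both CLP_RAGhigh arrays and below 0 on both CLP_RAGlow arrays.

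Dnmt3b, a de novo methyltransferase, was bright in both groups, and its 2 probe sets went in opposite directions. On 1449052_a_at it had 10.18 and 10.23 in CLP_RAGhigh and 9.96 and 10.05 in CLP_RAGlow, with both CLP_RAGhigh arrays above. The difference was 0.20 ± 0.19 (SE, n = 2 per group, limma adjusted p = 1), with a 95% interval from -0.27 to 0.67. On 1418351_a_at it had 7.69 and 7.93 in CLP_RAGhigh and 7.97 and 8.05 in CLP_RAGlow, with both CLP_RAGhigh arrays below, and a difference of -0.20 ± 0.29 (-0.08 without CLP_RAGhigh replicate 1 and -0.33 without CLP_RAGhigh replicate 2). Averaging the 2 probe sets gave -0.00054. The annotation gives both probe sets the same transcript accession, and the suffix marks probes shared by several transcripts of a gene.

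Dnmt3a, the other de novo methyltransferase, had 7.63 and 7.93 in CLP_RAGhigh and 7.99 and 7.43 in CLP_RAGlow on its brightest probe set, 1460324_at. The CLP_RAGlow arrays lay outside the CLP_RAGhigh arrays on both sides. The difference was 0.07 ± 0.37 (SE, n = 2 per group, limma adjusted p = 1), with a 95% interval from -0.84 to 0.98, and it was -0.08 without CLP_RAGhigh replicate 2 and -0.21 without CLP_RAGlow replicate 2. Of its 5 probe sets, 4 had a slightly higher mean in CLP_RAGhigh, from 0.06 to 0.16. The exception was 1423065_at, with 6.71 and 5.14 in CLP_RAGhigh and 7.90 and 6.48 in CLP_RAGlow. There the groups overlapped and the arrays were 1.57 apart in CLP_RAGhigh and 1.42 in CLP_RAGlow, so the difference of -1.26 ± 0.75 was within the spread between arrays, and with 1 array left out it ranged from -2.05 (without CLP_RAGhigh replicate 1) to -0.48 (without CLP_RAGhigh replicate 2). The average over the 5 probe sets was -0.18.

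Tet2, a TET enzyme without the CpG-binding domain of its relatives, had 7.39 and 2.23 in CLP_RAGhigh and 7.57 and 5.99 in CLP_RAGlow (1438781_at). CLP_RAGhigh replicate 1 was close to the highest CLP_RAGlow array, and replicate 2 was below the median of all probe sets. The difference of -1.97 ± 1.63 (SE, n = 2 per group, limma adjusted p = 1) had a 95% interval from -5.99 to 2.05. It was 0.61 without CLP_RAGhigh replicate 2. With an offset of 32 added before the log, which shrinks the weight of dim values, the difference was -0.77. The other probe set, 1455300_at, did not show the low array. It had 4.02 and 4.61 in CLP_RAGhigh and 4.37 and 5.33 in CLP_RAGlow, a difference of -0.53 ± 0.46, which was -0.05 without CLP_RAGlow replicate 2, -0.24 without CLP_RAGhigh replicate 1 and -1.01 without CLP_RAGlow replicate 1.

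Tet1 had the same low array on 2 of its 4 probe sets. On 1455425_at it had 7.57 and 4.21 in CLP_RAGhigh and 6.64 and 6.99 in CLP_RAGlow, and on 1429448_s_at 7.56 and 3.44 against 6.61 and 6.10. On both, CLP_RAGhigh replicate 1 was the highest and replicate 2 the lowest of the 4 arrays. The first differed by -0.92 ± 1.05 (SE, n = 2 per group, limma adjusted p = 1), with a 95% interval from -3.52 to 1.68, and by 0.76 without CLP_RAGhigh replicate 2. Probe set 1419896_at went the other way, with 5.78 and 5.94 in CLP_RAGhigh and 5.37 and 3.26 in CLP_RAGlow. Both CLP_RAGhigh arrays were above, and the difference of 1.54 ± 0.74 (limma, adjusted p = 1 over all probe sets) came mostly from CLP_RAGlow replicate 2. Without that array it was 0.49. The fourth, 1419897_at, was below the median of all probe sets on all arrays. The average over the 4 probe sets was -0.02, so the Tet1 probe sets gave no common direction.

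Tet3, represented by a single probe set (1439324_at), was below the median of all probe sets on every array, with 3.48 and 3.46 in CLP_RAGhigh and 3.58 and 3.39 in CLP_RAGlow. The deposited values have no detection calls, so low expression and a probe set that does not respond could not be told apart for Tet3. The difference was -0.02 ± 0.21 (SE, n = 2 per group, limma adjusted p = 1), with a 95% interval from -0.54 to 0.51, and 0.076 without CLP_RAGlow replicate 1.

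Over the 21 probe sets, 10 were higher and 11 lower in CLP_RAGhigh by mean. With limma 0 of them had an adjusted p under 0.05 and 0 an unadjusted p under 0.05 (the smallest was 0.0804), where all 34945 probe sets had 0% either way by the first rule, and 2.24% higher and 2.56% lower by the second. The arrays were separated above for 3 probe sets (Uhrf1, Dnmt3b and Tet1, 1 each) and below for 1 of Dnmt3b, where the background over all probe sets was 15.5% above and 15.2% below. The difference exceeded the gap between arrays in both groups for 2 probe sets, 1415810_at of Uhrf1 and 1449052_a_at of Dnmt3b. The arrays of CLP_RAGhigh were more than 1 log2 unit apart for 7 probe sets, all of them of Dnmt3a, Tet1 or Tet2, and those of CLP_RAGlow for 4.

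**Figure D3:**
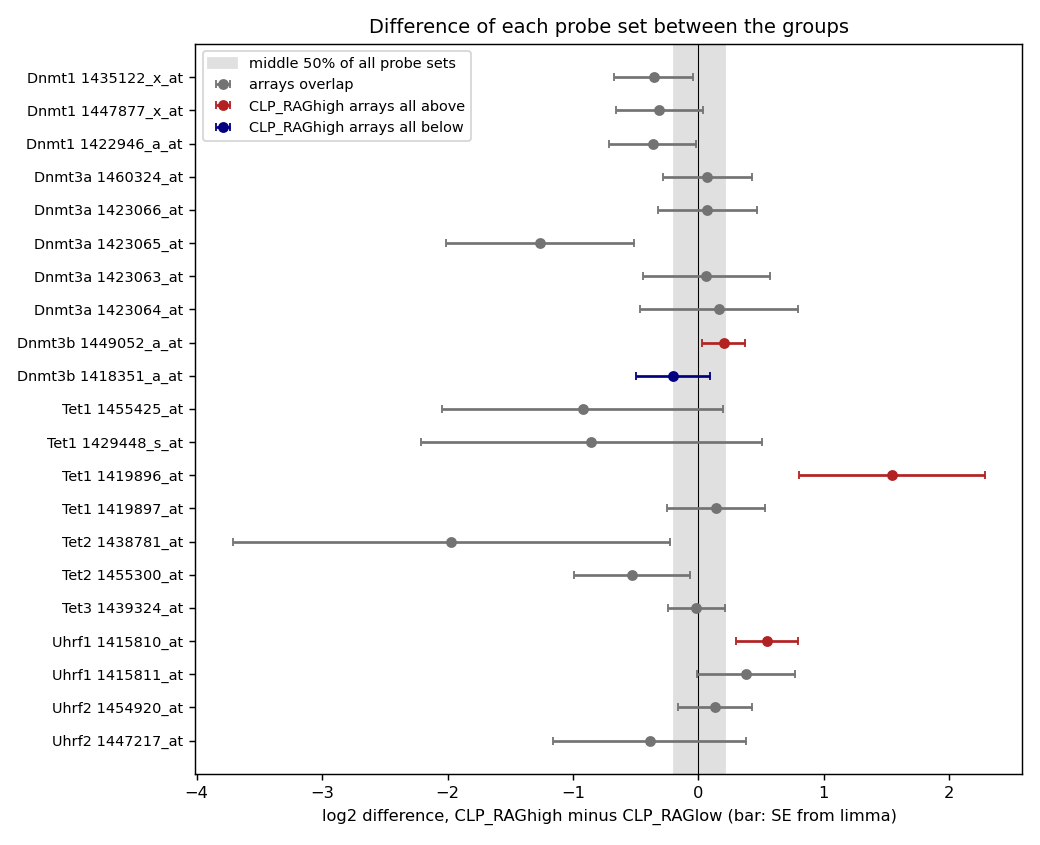
The plot shows the log2 difference, CLP_RAGhigh minus CLP_RAGlow (x axis, bars are the standard error from limma), of each of the 21 probe sets (y axis), with the middle 50% of all probe sets shaded. Both Uhrf1 probe sets lie to the right of 0, at 0.55 and 0.38, all 3 of Dnmt1 to the left, and those of Dnmt3b and Tet1 on both sides.

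Tet2 had the widest range of the 8 genes over the 4 arrays, 5.34 log2 units. The 5 genes with the most similar pattern, by the root mean square difference of centred log2 values over the 4 arrays among 11575 genes at or above the median brightness, were Vma21 (0.40), Zfp287 (0.42), Ftsj3 (0.74), Prpf18 (0.76) and Zfp467 (0.79). By this choice all of these shared the low value on CLP_RAGhigh replicate 2, so the sharing is no separate result. On that array Vma21 had 3.78, and on the other arrays 7.64 to 8.38. Counted after this was seen, 51 of 11576 genes (0.441%) were at least 2 log2 units lower on CLP_RAGhigh replicate 2 than on any other array. The corresponding counts were 21 for CLP_RAGhigh replicate 1, 22 for CLP_RAGlow replicate 1 and 15 for CLP_RAGlow replicate 2. The same array had the lowest 3' to 5' ratio of Actb, given above, and whether this bears on the low values was not tested.

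Partners of maintenance methylation differed by -0.43 to 0.26 on their brightest probe sets. By mean, 3 of 7 measured genes (of 8 on the list) were higher and 4 lower in CLP_RAGhigh, with a median of -0.11. Of these, 1 was separated below and 0 above (15.8% and 15.4% of all genes). None had an unadjusted limma p under 0.05 (2.94% of all genes lower, 2.35% higher). Ehmt2, a histone methyltransferase, differed by 0.26 ± 0.33 (-0.04 to 0.55 with 1 array left out). Hells, a chromatin remodeller needed for DNA methylation at repeats, differed by -0.21 ± 0.31 (-0.39 to -0.04 with 1 array left out). Its 3 probe sets ran from -1.32 to -0.21. Averaged probe sets gave larger differences for Hells (-0.74) and Cbx5 (-0.55), against 0.25 for Ehmt2 and -0.07 for both Cdca7 and Usp7. Of 6 partners of de novo methylation, 1 was higher and 5 were lower by mean, with a median of -0.06. None was separated, against 15.4% of all genes above and 15.8% below. Kdm1b, a histone demethylase needed for methylation in oocytes, differed by -0.62 ± 0.73 (-1.60 to 0.37 with 1 array left out), and Trim28, a corepressor that protects methylation at imprinted sites, by -0.06 ± 0.17 (-0.23 to 0.10 with 1 array left out, and 0.08 with its probe sets averaged). Dnmt3l, the inactive cofactor of the de novo enzymes, was below the median of all probe sets in both groups, at 3.73 and 3.71. Proteins that bind methylated CpG were split, 4 higher and 3 lower of 7 measured, with a median of 0.02. Over the alternatives this median ran from -0.21 to 0.11. Of the 7 genes, 1 was separated above and 0 below (15.4% and 15.8% of all genes). The separated gene was Mbd2, with a difference of 0.24 ± 0.32 (0.59 with its 2 probe sets averaged). Mbd4, a glycosylase that removes mismatched thymine at CpG sites, differed by -0.88 ± 0.65 (-1.62 to -0.14 with 1 array left out), and Zbtb4 by -0.55 ± 0.60 (-1.38 to 0.28 with 1 array left out, and 0.11 with its 4 probe sets averaged).

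Among 13 measured genes of active demethylation and TET cofactors (of 15 on the list), 6 were higher and 7 lower by mean in CLP_RAGhigh. Of these, 2 were separated above and 1 below (15.4% and 15.8% of all genes), and the median was -0.06. In each direction 1 had an unadjusted limma p under 0.05 (2.35% of all genes higher, 2.94% lower), and 0 passed over all genes. Parp1, which makes poly-ADP-ribose at DNA breaks and takes part in base excision repair, had 11.88 and 11.81 in CLP_RAGhigh and 10.91 and 10.91 in CLP_RAGlow. The groups were far apart relative to their spread, with a difference of 0.93 ± 0.13 (SE, n = 2 per group, limma adjusted p = 0.282). Its 4 probe sets had differences from 0.0045 to 1.37, so the smallest was close to no difference, and their average gave 0.89. Gadd45b, a stress-induced protein linked to demethylation, had 5.64 and 5.49 against 6.68 and 6.56, a difference of -1.05 ± 0.34 (limma adjusted p = 0.869), which was -0.53 with its 3 probe sets averaged. For the methyl donor cycle, which supplies S-adenosylmethionine, 6 of 8 genes were measured, 3 higher and 3 lower, with a median of 0.01. Of these, 2 were separated above and 0 below (15.4% and 15.8% of all genes). The 2 were Adk, which clears adenosine, at 0.38 ± 0.24 (0.04 with its 6 probe sets averaged), and Mat2b, a regulator of S-adenosylmethionine synthesis, at 0.39 ± 0.36 (0.22 to 0.55 with 1 array left out).

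**Figure D4:**
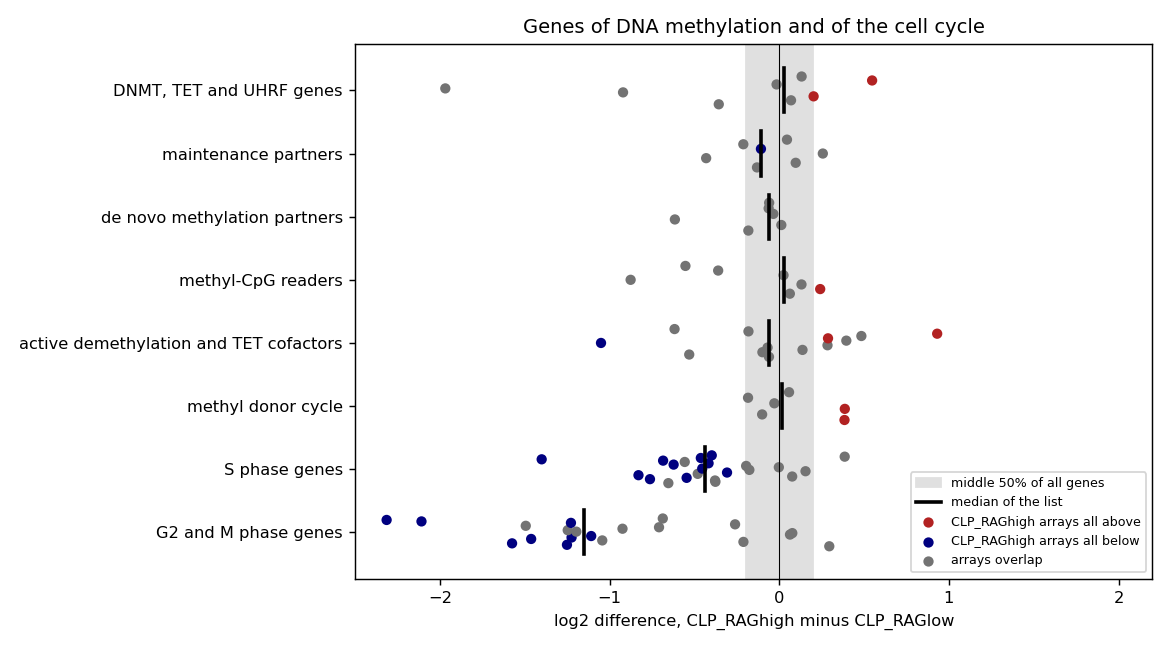
The plot shows the log2 difference, CLP_RAGhigh minus CLP_RAGlow (x axis), of each measured gene on the lists (y axis), with list medians as black bars, the middle 50% of all genes shaded, and colours for arrays that do not overlap. The medians of the 8 genes and of the 5 lists of DNA methylation lie between -0.11 and 0.03, and those of the S phase and the G2 and M phase genes at -0.44 and -1.15.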

How the data were processed

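The values are 1 intensity per probe set and Affymetrix MOE430_2 array, deposited by the authors, who computed them with RMA (background correction, normalization between arrays, summary of the probes of a set) per the labels' series design. They ran from 2.35 to 19892 and so are not on a log scale. Their log2 was used for all comparisons. The software and the genome build were not given in the sources used here.

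Of 45101 rows, 64 controls were left out, and of the others 34945 probe sets had 1 gene, 932 several and 9160 none in the platform annotation. The gene IDs of 34741 were found in RefSeq (GRCm38.p6), and 0 symbols changed. Array medians ran from 14.5 to 14.8 units. Groups were compared with limma 3.58.1 in R 4.3.3 (lmFit, eBayes with an intensity trend, 2 residual and 3.75 prior degrees of freedom), two-sided. P-values were adjusted by Benjamini-Hochberg over all genes, or over all probe sets for single probe sets, at a threshold of 0.05. For CLP_RAGhigh against CLP_RAGlow, 10 tables of 18193 genes were simulated with normally distributed noise. In each, 200 genes were changed, all drawn from genes at or above the median brightness. An adjusted limma p under 0.05 was reached by 0.149% of genes changed by 1 log2 unit, 2.99% changed by 2 and 39.8% changed by 4. An unadjusted limma p under 0.05 was reached by 69.4%, 89.0% and 98.9%, and by 5.72% of unchanged genes.

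The 8 genes and all lists were chosen with earlier results of these data known. All 8 genes are named with every probe set, and from each list the 2 genes with the smallest p and any with an unadjusted p under 0.05. Dnmt3l, Cbx5, Cdca7, Usp7, Mbd2 and the marker genes were named outside this rule, after their values were seen. The alternatives were averaged probe sets, leaving out probe sets marked _s_at, _x_at or _a_at, an offset of 32, quantile normalization, no trend, a brightness filter, array weights, a replicate block and leaving out each array. Replicate numbers do not pair the arrays by the labels, and deviations of same-numbered arrays correlated at -0.02 across genes. Figures were drawn with matplotlib 3.10.9.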

Additional observations from a re-analysis of the deposited data

How the results depend on the processing

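Of the 8 gene differences, 0 had an adjusted limma p under 0.05 under any alternative (the smallest was 0.547), and 83 of 93 values kept their direction, with the 12 of Uhrf1 among them. Directions could not change with no trend, the brightness filter, array weights or the replicate block, which left each difference as it was. The replicate block gave 7 genes past the threshold over all genes, against 0 without it. Averaged probe sets gave 2, and quantile normalization and the brightness filter gave 1 each. Averaging turned Dnmt3a to -0.18, Dnmt3b to -0.00054 and Uhrf2 to -0.13. In each, 1 probe set had the lower mean: 1423065_at (-1.26), 1418351_a_at (-0.20) and 1447217_at (-0.39). Why these probe sets differed from the others of their gene was not tested. Dnmt1 and Dnmt3b have only probe sets with the suffixes left out, and Tet3 lies under the brightness filter, so those alternatives gave no value for them. Array weights came out equal within each group.

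With 1 array left out, the genes at an unadjusted p under 0.05 ranged from 539 (without CLP_RAGlow replicate 1) to 1634 (without CLP_RAGhigh replicate 1). The differences ranged from -0.78 to 0.069 for Dnmt1, -0.21 to 0.35 for Dnmt3a, -2.60 to 0.76 for Tet1, -4.55 to 0.61 for Tet2, -0.11 to 0.076 for Tet3 and -0.050 to 0.31 for Uhrf2. For the other probe sets that changed sign, they ranged from -0.73 to 0.10 for 1447877_x_at of Dnmt1, -0.77 to 0.040 for 1422946_a_at of Dnmt1, -0.28 to 0.42 for 1423066_at of Dnmt3a, -0.54 to 0.66 for 1423063_at of Dnmt3a, -0.60 to 0.93 for 1423064_at of Dnmt3a, -2.92 to 1.21 for 1429448_s_at of Tet1, -0.40 to 0.68 for 1419897_at of Tet1 and -1.53 to 0.75 for 1447217_at of Uhrf2. The depth behind an array value is not known, and the 2 arrays per group limit what can be seen. In the simulated tables, 0.149% of changes of 1 log2 unit reached an adjusted limma p under 0.05, and 69.4% an unadjusted one. Genes below the median brightness, where Tet3 lies, were not changed in those tables.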
